A study of Mus musculus with 4 samples.

Results

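The oxidative stress and iron handling genes followed here in spatial transcriptomes of the inflamed mouse pancreas were Hmox1, Nqo1, Gclm, Gclc, Srxn1, Txnrd1, Slc7a11, Sat1, Fth1 and Ftl1. They were picked by name, and each was found in the gene list of the deposited count files, as 10 of 32285 features that carry no mark of a deprecated probe. All 10 members had UMIs in each of the 4 sections, and all 10 passed the filter on low counts.

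Most of these genes are read together because the transcription factor NRF2 (gene Nfe2l2) can switch them on. In a resting cell KEAP1 sends NRF2 to degradation. When electrophiles or peroxides modify KEAP1, NRF2 escapes, enters the nucleus and binds antioxidant response elements, from which BACH1 is displaced when heme is abundant. Hmox1 encodes heme oxygenase, which opens the heme ring and releases iron, carbon monoxide and biliverdin. The freed iron can be stored by ferritin, a shell built of heavy chains (Fth1) and light chains (Ftl1), and ferritin translation is held back by iron regulatory proteins when iron is scarce. In the pancreas the acinar cells, which make the digestive enzymes, meet oxidative stress early in pancreatitis, and macrophages that clear dead cells and red blood cells are known for high heme oxygenase.

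The samples were 4 sections of fixed, paraffin-embedded pancreas from C57Bl/6 mice that all carried the Pdx1-Cre transgene. Of these sections, 2 were labelled Ehmt2 +/+ and 2 Ehmt2 fl/fl. Each section was taken here as 1 mouse, which the methods do not state for the spatial data. Ehmt2 encodes a histone H3 lysine 9 methyltransferase, and Pdx1-Cre removes the floxed gene from the pancreatic epithelium, so stroma, vessels and immune cells keep it. All the mice, aged 4 weeks, were fasted for 12 h and given 8 hourly injections of caerulein at 50 μg/kg. Caerulein is an analogue of cholecystokinin that brings on acute pancreatitis. The mice were killed 18 h after the first injection. Untreated sections were not analysed here, so every value describes injured tissue. The study used the spatial data to set the inflamed pancreas of both genotypes side by side, by shares of marker-positive spots and spatial fold changes. Here the members are compared between the same genotypes by other measures, with each section as 1 replicate.

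Several properties of the sections touch the results. Below, values are given for the sections labelled Ehmt2 +/+ replicates 1 and 2 and then for those labelled Ehmt2 fl/fl replicates 1 and 2. Spots with at least 500 UMIs (unique molecular identifiers, each a captured probe molecule) numbered 6144 to 7871, and they held 43784930, 7845575, 6643747 and 7938386 UMIs. Median UMIs per spot were 6328, 874, 981 and 1113, and the first of these sections stood apart from the other 3. Of the UMIs, 65.4%, 54.6%, 22.9% and 22.1% came from digestive enzyme genes. Olfactory receptor genes, taken here as a set with little expected use in pancreas, serve as a background level. They had median CPM (the per-million share of a section's UMIs) of 0.251, 4.97, 8.13 and 12.6. Ehmt2 itself was at 19.8, 3.95, 10.1 and 12.1 CPM. It lay below that background median in the sections labelled Ehmt2 +/+ replicate 2 and Ehmt2 fl/fl replicate 2, so its level did not check the labels, and the group names below are those of the labels. The 5 sex-linked genes examined held at most 2 UMIs in the first pair of sections and 256 or more in the second, all from Y-linked genes and none from Xist, so the sex of the mice and the genotype cannot be told apart. Each of the 2 slides carried 1 section of each label, but the capture area was the same for both sections of a label, so area and genotype cannot be told apart either.

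Because the enzymes took such unequal shares, 2 scales were used. CPM divides by all UMIs of a section, and the reference scale (reference CPM) divides by the UMIs of features that are neither on the digestive enzyme list nor on a cell type marker list. On the CPM scale 8 of the 10 members were higher in both Ehmt2 fl/fl-labelled sections than in both Ehmt2 +/+-labelled ones, none was lower, and Gclc and Ftl1 overlapped. Of 20053 genes tested 91.8% were higher and 0.778% lower in this sense, so 8 of 10 was not above the background. On the reference scale 4 members were higher (Hmox1, Srxn1, Txnrd1 and Slc7a11), Ftl1 was lower and 5 overlapped, beside 46.9% of genes higher and 6.69% lower. The members thus did not all lie the same way, and with 2 sections against 2 the exact two-sided permutation test can give no p below 0.333.

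**Figure D1:**
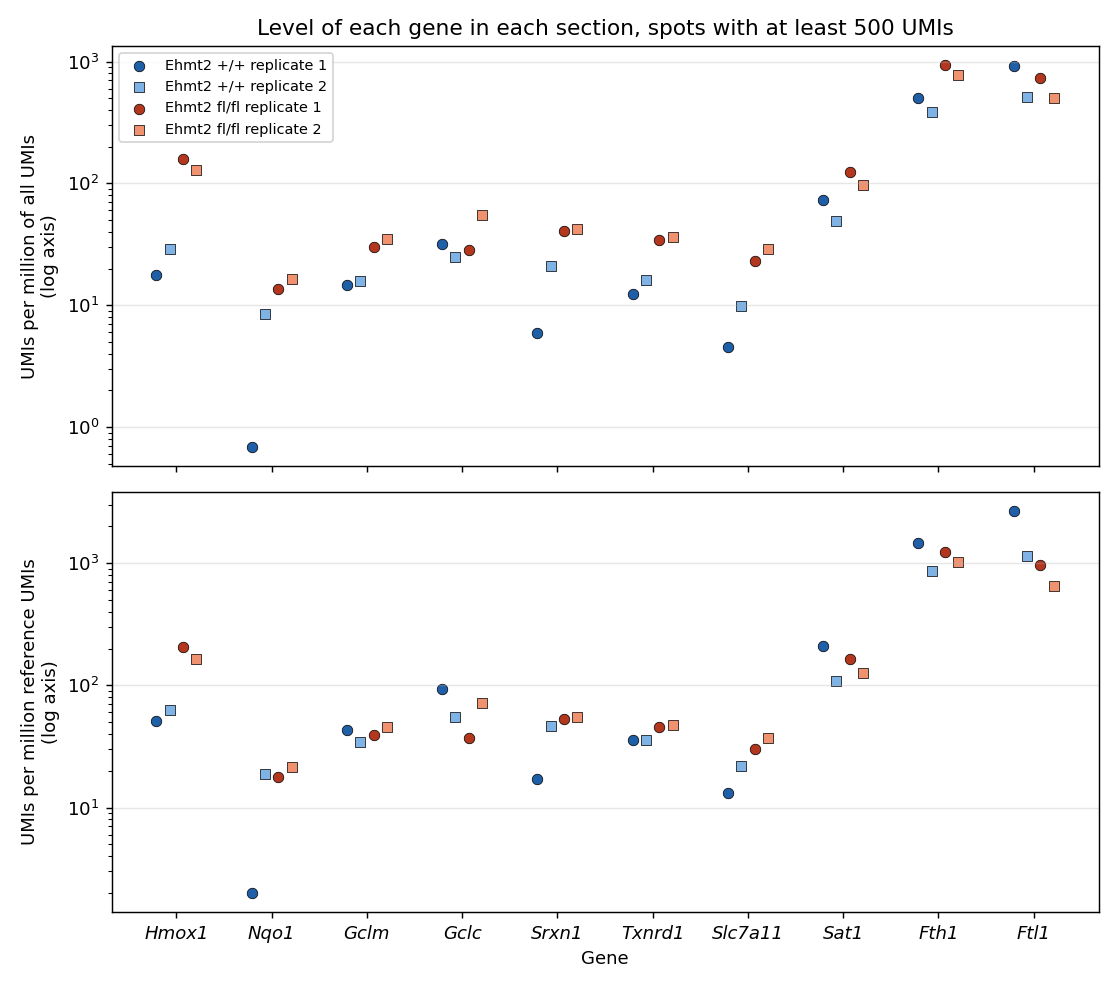
CPM of the 10 genes (upper panel) and reference CPM (lower panel), both on log axes, with 1 point for each section. Hmox1 lies higher in both Ehmt2 fl/fl-labelled sections in both panels, from 128 to 157 CPM against 17.6 and 28.7, while Ftl1 overlaps in the upper panel and is lower in the lower one.

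Hmox1, the inducible heme oxygenase, had the largest ratio of the mean CPM between the labels among the members. Its CPM was 17.6, 28.7, 157 and 128, from 770, 225, 1044 and 1017 UMIs. Both Ehmt2 fl/fl-labelled sections lay above both others, and all 4 lay above the background median. The mean CPM was 23.1 ± 7.84 (SD, n = 2) against 143 ± 20.5 (SD, n = 2), a ratio of 6.17 (exact two-sided permutation p = 0.333, the smallest possible). Within slide 1 the ratio was 8.94 and within slide 2 it was 4.47.

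The reference CPM of Hmox1 was 51.2, 63.4, 207 and 166, a ratio of the means of 3.25, with 4.05 within slide 1 and 2.61 within slide 2. Each spot was then thinned to 500 UMIs, so that deep and shallow spots could be compared. A spot so thinned held an Hmox1 UMI with a probability of 1.13%, 1.49%, 7.73% and 6.45%, beside medians over the olfactory receptor genes of 0.0165%, 0.270%, 0.424% and 0.663%. Without thinning the shares of positive spots were 11.5%, 2.76%, 14.5% and 13.9%, and the first section, the deepest, lay close to the last 2. No spot held more than 3 Hmox1 UMIs, and its UMIs were found in 707, 217, 937 and 900 spots.

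By CPM every cell type marker list but islet, which overlapped, was higher in both Ehmt2 fl/fl-labelled sections, as were 91.8% of genes tested. The fibroblast list was at 416, 540, 2002 and 1899 CPM and the lymphoid list at 4.27, 67.4, 188 and 254. The macrophage marker list moved in the same way. All 14 of its genes were detected in every section, and its summed CPM was 106, 200, 1171 and 992. Among spots with no UMI of any of these 14 genes, which were 51.8%, 82.7%, 35.8% and 35.7% of the spots, Hmox1 was at 50.7, 61.8, 175 and 144 reference CPM. The ratio of the means there was 2.84, and in the spots with at least 1 macrophage UMI it was 3.27. A spot without such a UMI may still hold macrophage RNA that was not captured, so this split does not take macrophages out. The part of macrophage number in the difference was not tested. In sections, as in any bulk sample, more cells of a type and more RNA per cell cannot be told apart.

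Spots within 1 window of enzyme share gave a further comparison. Enzyme shares inside the window were not compared between the sections and may still differ. In spots where digestive enzymes took 20% to 50% of the UMIs, of which there were 111, 2197, 3442 and 2950, Hmox1 CPM was 36.1, 37.1, 133 and 104. The first of these values rests on 10 UMIs, with an exact Poisson 95% interval of 17.3 to 66.5 that covers counting error only. The groups did not overlap, with a ratio of the means of 3.24. In these spots 5 members were higher in both Ehmt2 fl/fl-labelled sections (Hmox1, Srxn1, Txnrd1, Slc7a11 and Sat1) and none was lower, beside 30.5% of genes higher and 3.51% lower. In the section labelled Ehmt2 +/+ replicate 1, Srxn1, Txnrd1 and Slc7a11 had only 1, 3 and 0 UMIs in these spots. That section was thus barely measured for these genes.

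The ferritin chains had the most UMIs of the members and parted from each other. Fth1, the heavy chain with the ferroxidase site, had 499, 388, 937 and 783 CPM, and Ftl1, the light chain that helps form the iron core, had 917, 515, 735 and 507 CPM. Fth1 was therefore higher in both Ehmt2 fl/fl-labelled sections by CPM, with means of 443 ± 78.1 and 860 ± 109 (SD, n = 2), and Ftl1 overlapped. In reference CPM Fth1 was at 1451, 859, 1234 and 1013 and overlapped, with a ratio of the means of 0.973. Ftl1 was at 2668, 1139, 968 and 656 and was lower in both Ehmt2 fl/fl-labelled sections, with a ratio of 0.427, 0.363 within slide 1 and 0.576 within slide 2.

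The messages of both chains carry the same iron control, and their sequences are shown because they make the pair comparable. An iron responsive element is a hairpin near the start of the transcript whose loop, CAGTGN, sits on a paired stem under a bulged C. A search for it (C, 5 bases, CAGTGN, and 5 bases that pair with the first 5, with G to U allowed) in the first 300 bases of the protein-coding transcripts of GENCODE vM21 found it in 37 of 21746 genes, 0.170%, and among the 10 members in Fth1 and Ftl1 only. The Fth1 site lies on the plus strand at chr19:9982732-9982761 and the Ftl1 site on the minus strand at chr7:45459778-45459807 (GRCm38.p6, the build of mm10). Their loops are centred 101 and 92 bases from the transcript start. The loop is in capitals:
Fth1: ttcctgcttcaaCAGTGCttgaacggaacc
Ftl1: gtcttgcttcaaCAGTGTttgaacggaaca
This element acts on translation in Fth1 and Ftl1, while UMIs count RNA, so the values here do not read it out.

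The ratio of the chains within a section needs no scaling. For every Ftl1 UMI there were 0.544, 0.754, 1.27 and 1.55 Fth1 UMIs, with means of 0.649 ± 0.149 and 1.41 ± 0.192 (SD, n = 2), and the groups did not overlap (exact two-sided permutation p = 0.333, the smallest possible). Probes differ in yield between genes, so the ratio of 1 section is not a ratio of chains, and only its difference between sections is of use. When the spots were cut by enzyme share into 4 bins of like size, every bin showed the same order of the labels. The means ran from 0.585 ± 0.108 against 1.12 ± 0.120 (SD, n = 2) in the highest bin to 0.793 ± 0.221 against 1.60 ± 0.354 in the lowest. Bins of 1 rank differ in enzyme share, with 68.7%, 63.4%, 37.0% and 36.4% in the highest bin. Within every section the ratio was lower in the highest than in the lowest bin. The lowest bin of the section labelled Ehmt2 +/+ replicate 2, at 36.9%, had a ratio of 0.949, against 1.04 and 1.21 in the highest Ehmt2 fl/fl-labelled bins. The part of enzyme share in the gap was not tested. In the spots with an enzyme share of 20% to 50% the ratio was 1.01, 0.853, 1.19 and 1.36, a smaller gap that still did not overlap. Hmox1 UMIs per Fth1 UMI were 0.0353, 0.0739, 0.168 and 0.164. In the spots with an enzyme share of 20% to 50% they were 0.0437, 0.0820, 0.167 and 0.152. These ratios were chosen after the values had been seen. Reads of Ftl1 are uncertain to the extent that probes also bind its near copy Ftl1-ps1, which was counted apart with 352, 263, 387 and 588 UMIs.

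**Figure D2:**
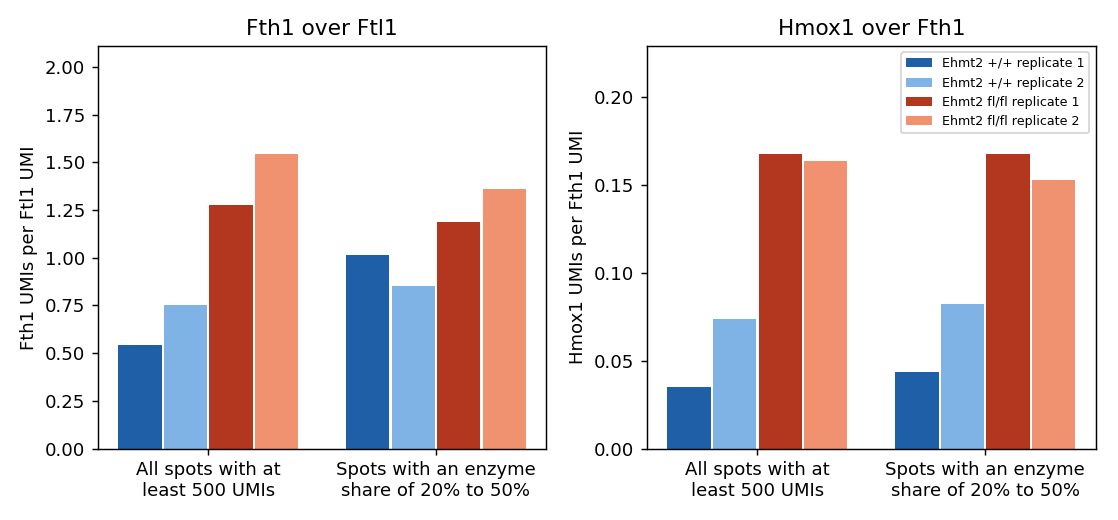
Fth1 UMIs per Ftl1 UMI (left) and Hmox1 UMIs per Fth1 UMI (right), 1 bar for each section, over all spots with at least 500 UMIs and over the spots with an enzyme share of 20% to 50%. Both sections labelled Ehmt2 fl/fl lie above both Ehmt2 +/+-labelled ones in each of the 4 clusters of bars, with 1.27 and 1.55 against 0.544 and 0.754 for Fth1 over Ftl1 in all spots.

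The glutathione genes gave a mixed picture. Slc7a11, the cystine transporter that supplies cysteine for glutathione, was at 4.54, 9.81, 22.9 and 28.8 CPM and at 13.2, 21.7, 30.1 and 37.3 on the reference scale, higher in both of the Ehmt2 fl/fl-labelled sections on each. After the background median was subtracted it was at 12.5, 10.7, 19.4 and 21.0 on the reference scale, a ratio of 1.74, and the groups still did not overlap. Gclm, the modifier subunit of glutamate-cysteine ligase, was at 14.7, 15.7, 29.8 and 35.1 CPM, 2.14 times higher by the means. Its reference CPM was 42.9, 34.7, 39.3 and 45.5, and the groups overlapped.

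Gclc, the catalytic subunit of the same ligase with Gclm, overlapped on both scales. Its CPM was 32.0, 25.1, 28.3 and 55.3 and its reference level was 93.2, 55.5, 37.3 and 71.6. Within slide 1 the reference level of the section labelled Ehmt2 fl/fl was 0.40 of its neighbour and within slide 2 it was 1.29, so the slides went opposite ways. Gclm UMIs per Gclc UMI were 0.460, 0.624, 1.05 and 0.636, which do not overlap by the narrow gap between 0.624 and 0.636.

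Srxn1 (sulfiredoxin, which repairs overoxidized peroxiredoxins) and Txnrd1 (cytosolic thioredoxin reductase) were higher in both Ehmt2 fl/fl-labelled sections on both scales, though by less than Hmox1. Srxn1 was at 17.3, 46.5, 53.1 and 54.9 reference CPM, so the section labelled Ehmt2 +/+ replicate 2 was closer to the other label than to its own. Its ratio was 3.08 within slide 1 and 1.18 within slide 2. Txnrd1 was at 35.7, 35.5, 45.4 and 47.3 with ratios of 1.27 and 1.33 within the slides, the most even of the members. After subtraction of the background median it was at 35.0, 24.5, 34.7 and 31.0, and the groups overlapped.

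Nqo1, the quinone reductase often used as an NRF2 reporter, could not be clearly told from background. Its CPM was 0.685, 8.54, 13.5 and 16.5, from 30, 67, 90 and 131 UMIs. Of the 1135 olfactory receptor genes, 1.94%, 6.61%, 12.7% and 21.5% were at or above it in the same section, so its level lay within their range. With the background median subtracted it was at 0.434, 3.57, 5.42 and 3.91 CPM, higher in both Ehmt2 fl/fl-labelled sections. The share of all genes that did so was not computed. In reference CPM it was then at 1.26, 7.89, 7.14 and 5.05, and the groups overlapped.

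Gclm, Srxn1 and Txnrd1, 3 of the 8 members with an entry in the RefSeq promoter table, held the core of the antioxidant response element, TGACNNNGC, on either strand between 250 bases before and 50 bases after a transcript start (GRCm38.p6). The same letters were found in 12.4% of all 32851 windows of that length, and in at least 1 window of 14.0% of 27025 gene symbols. These 3 are printed because NRF2 is known through this element. Each match lies on the strand opposite to the gene and is printed on that strand, with the core in capitals. They are centred 130 bases before the start in Gclm (chr3:122245413-122245442), 33 bases after it in Srxn1 (chr2:152105542-152105571) and 88 bases before 1 of 3 starts of Txnrd1 (chr10:82859104-82859133):
Gclm: ctcgtgagagtTGACGGTGCgcccgggagc
Srxn1: gtgtctcactcTGACCTAGCtgcccactgc
Txnrd1: ccgtgtcagaaTGACAAAGCaaaaatccag
Of the 3, Srxn1 and Txnrd1 were higher in both Ehmt2 fl/fl-labelled sections on the reference scale and Gclm overlapped. The windows of Nqo1, Slc7a11, Sat1, Fth1 and Ftl1 did not hold these letters, and Hmox1 and Gclc had no entry. A match is a run of letters and not a measured binding site.

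Sat1 encodes the spermidine and spermine acetyltransferase that starts polyamine breakdown and yields peroxide in later steps. Its CPM was 72.4, 48.7, 125 and 97.8, higher in both Ehmt2 fl/fl-labelled sections with a ratio of the means of 1.84. In reference CPM it was at 211, 108, 165 and 126 and overlapped. Sat1 lies on the X chromosome, and sex and genotype cannot be told apart in these sections.

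The test across all genes called none of the 10 members. In the edgeR quasi-likelihood fit of the summed counts, with TMM scaling and Benjamini-Hochberg adjustment over 20053 genes, 22 genes (0.110%) had an adjusted p under 0.05, 11 higher and 11 lower (0.0549% each), and 1059 had an unadjusted p under 0.05, none of them a member. The members' log2 fold changes ran from -2.48 ± 1.37 (SE) for Ftl1 to 0.74 ± 0.93 for Hmox1, both with adjusted p = 0.863. The absence of a call with 2 sections a label does not show that a gene was alike.

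Scaling moved these fold changes as a whole. The median over all genes was 0.25 with TMM, 1.69 with total UMIs and -0.03 with DESeq2 size factors, and over the 5834 genes with at least 100 UMIs in every section it was -0.88, 1.10 and -1.32. Against that second median, Hmox1 lay 1.62 higher with TMM and between 1.42 and 1.76 higher in the 15 fits made. Its own fold change was positive in all 15, from 0.17 to 2.63, and passed the threshold in the fit with total UMIs (edgeR adjusted p = 0.0304). That fit called 388 genes higher and 12 lower. Ftl1 lay 1.60 below the median with TMM, and its fold change was negative in all 15 fits, from -3.40 to -0.21, with adjusted p = 0.0215 in DESeq2. The DESeq2 fit called 6 genes higher and 464 lower. Srxn1, Slc7a11 and Txnrd1 lay above the median of these 5834 genes in all 15 fits, by 0.07 to 1.46, 0.49 to 1.21 and 0.19 to 0.49. The other 5 members lay above it in some fits and below it in others. Slc7a11 itself, with 77 UMIs in 1 section, is not among the 5834. Among all genes tested with TMM, 25.0% had a larger fold change than Hmox1, 55.4% than Srxn1, 55.0% than Slc7a11 and 74.5% than Txnrd1. For Ftl1 the share was 98.7%, and with DESeq2 it was 40.1% for Hmox1. Leaving out the section labelled Ehmt2 +/+ replicate 2 made 16653 genes and 7 members pass, with 1 section of that label left whose spread is then taken from the other label.

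**Figure D3:**
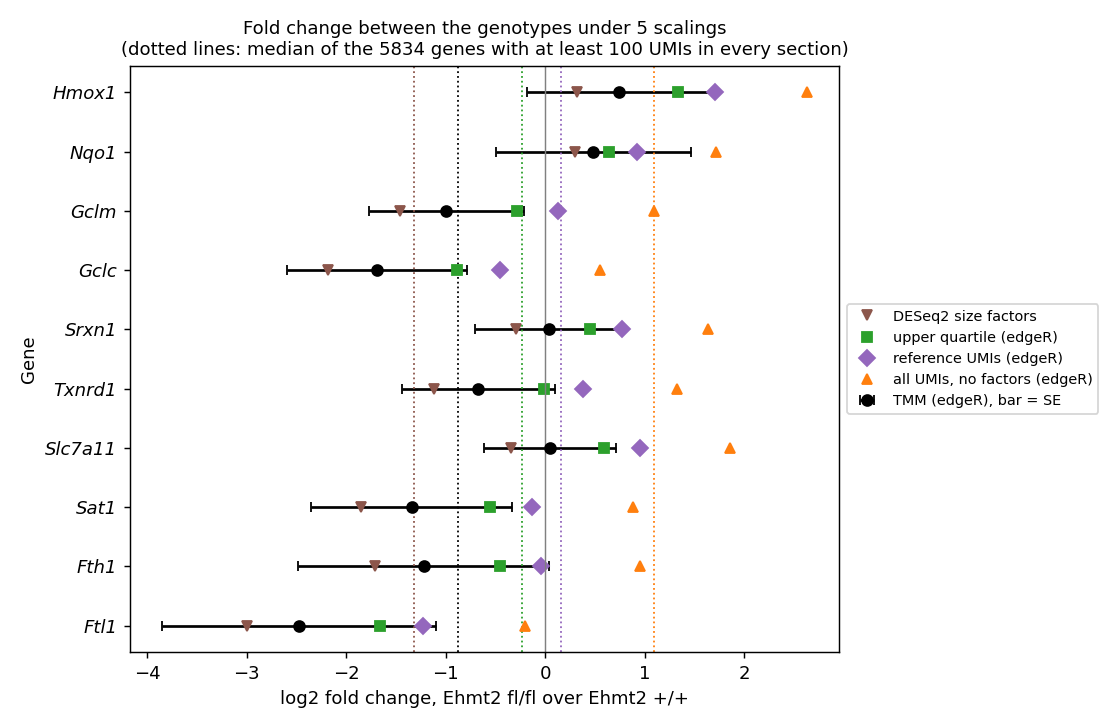
Log2 fold change of the 10 genes, sections labelled Ehmt2 fl/fl over those labelled Ehmt2 +/+, under 5 scalings, with the SE for TMM, and a dotted line in the matching colour at the median of the 5834 genes with at least 100 UMIs in every section. The points shift together with the dotted lines, and Hmox1 stays to the right of its line while Ftl1 stays to the left.

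Within each section, Hmox1 was higher where macrophage markers were. In the 10% of spots with the highest share of UMIs from the macrophage list (marker-rich spots), its reference CPM was 78.4, 88.8, 281 and 209, against 49.6, 60.9, 199 and 162 in the other spots of the same section. The log2 ratio was 0.67, 0.57, 0.50 and 0.38, above 0 in 4 of 4 sections with a mean of 0.53 ± 0.12 (SD). The exact two-sided sign-flip p was 0.125, the smallest possible for 4 sections, with 100 pairs of member and list read. Hmox1 in the marker-rich spots of either Ehmt2 +/+-labelled section lay below Hmox1 in the other spots of both Ehmt2 fl/fl-labelled sections. Enzymes took fewer UMIs in the marker-rich spots, 61.8%, 45.6%, 14.0% and 10.7% against 65.6%, 55.3%, 23.7% and 23.1%, and their part in the ratio was not tested.

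Srxn1 was the other member above 0 in 4 of 4 sections, with a mean log2 ratio of 0.35 ± 0.13, beside 14.0% of the 5834 well-counted genes above 0 and 9.08% below 0 in all 4. No member was below 0 in all 4. Fth1 and Ftl1, which macrophages of the spleen and liver are known to hold, had mean log2 ratios of 0.07 and 0.01. Sat1, Slc7a11, Gclc and Ftl1 had opposite signs in the 2 labels, and the share of all genes that did so was not computed. The Sat1 log2 ratio was 0.11 and 0.51 in the Ehmt2 +/+-labelled sections and -0.44 and -0.60 in the Ehmt2 fl/fl-labelled ones. For Slc7a11 and Gclc, marker-rich spots held only 11 to 12 and 17 to 78 UMIs.

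**Figure D4:**
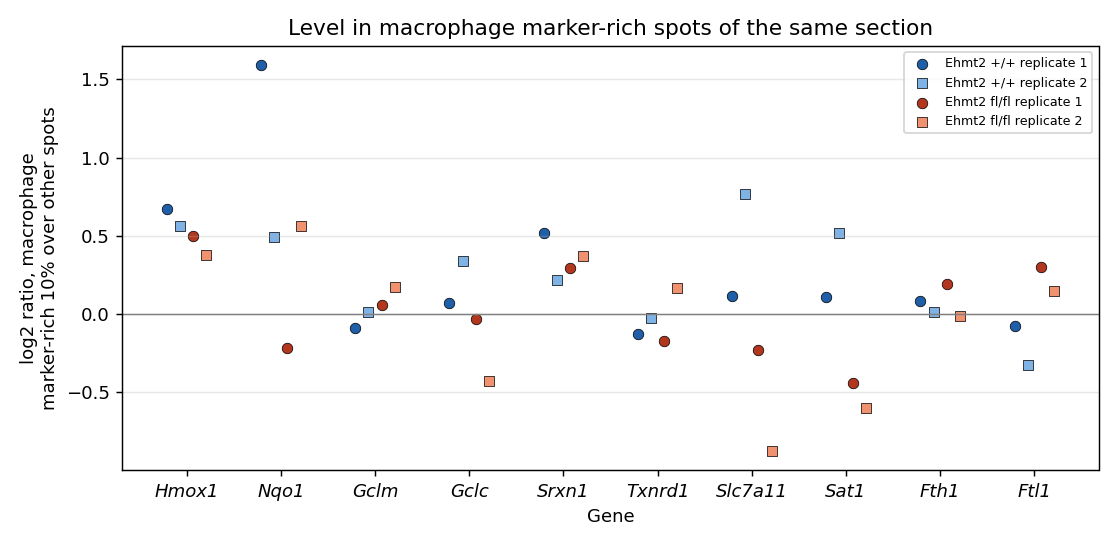
Log2 ratio of reference CPM in the 10% of spots richest in macrophage markers over all other spots of the same section, 1 point for each section. Hmox1 and Srxn1 lie above 0 in all 4 sections, Hmox1 between 0.38 and 0.67, and Sat1 lies above 0 in both sections labelled Ehmt2 +/+ and below it in both labelled Ehmt2 fl/fl.

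The other 9 marker lists were read in the same way, and no pair of member and list could give a sign-flip p below 0.125. For sparse lists the 10% included spots without a marker UMI, taken in file order. The section labelled Ehmt2 +/+ replicate 2 had 7871 spots. Its neutrophil, endothelium, smooth muscle, lymphoid and red blood cell lists held only 345, 358, 291, 529 and 371 UMIs. In Ehmt2 +/+ replicate 1, with 6144 spots, the neutrophil, lymphoid and smooth muscle lists held 158, 187 and 545. Signs for these lists rest partly on such spots. In fibroblast-rich spots Hmox1 (mean log2 ratio 0.32 ± 0.27, SD over 4 sections) and Fth1 (0.18 ± 0.12) were above 0 in all 4 sections, and Gclc (-0.43 ± 0.37), Ftl1 (-0.24 ± 0.14) and Sat1 (-0.15 ± 0.13) were below it, beside 15.9% and 8.59% of genes. In endothelium-rich spots Hmox1 (0.11 ± 0.08) and Fth1 (0.06 ± 0.02) were above 0 and no member below, beside 8.96% and 6.07%. Fth1 was also above 0 in smooth muscle-rich spots (0.06 ± 0.03), where Ftl1 was below (-0.13 ± 0.07), beside 9.07% and 6.50%. In fat-rich spots Gclm (0.24 ± 0.10) and Txnrd1 (0.17 ± 0.13) were above 0 and Ftl1 (-0.24 ± 0.12) below, beside 12.6% and 8.78%, and in lymphoid-rich spots Gclm (0.13 ± 0.19) was above and Ftl1 (-0.21 ± 0.14) below, beside 9.29% and 10.1%. Ftl1 alone was below 0 in duct-rich (-0.07 ± 0.01) and islet-rich spots (-0.14 ± 0.12), where no member was above, beside 10.3% higher and 4.61% lower for duct and 13.0% and 4.71% for islet. Gclc alone was below 0 in red blood cell-rich spots (-0.24 ± 0.27), beside 6.96% of genes lower. No member had 1 sign in all 4 sections in neutrophil-rich spots, beside 7.82% and 7.56% of genes.

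Spots were also ordered by the share of their UMIs from digestive enzymes, a reading of how much acinar RNA a spot held. Hmox1 was higher in the lowest than in the highest of the 4 bins in 4 of 4 sections, with reference CPM of 72.6 against 42.4, 68.3 against 47.0, 221 against 167 and 203 against 146, and a mean log2 ratio of 0.55 ± 0.16. Ftl1 ran the other way in 4 of 4 sections, with 2330 against 2844, 814 against 1457, 952 against 1066 and 556 against 822, and a mean of -0.46 ± 0.30. Nqo1 was also higher in the lowest bin in all sections, from few UMIs (10 against 11, 33 against 4, 26 against 13 and 42 against 30). The widest gap was 35.8 against 4.48 reference CPM in the section labelled Ehmt2 +/+ replicate 2. The background level was computed for whole sections and not for bins. Among all well-counted genes 27.6% were higher and 12.2% lower in all 4 sections, so 2 and 1 of 10 members were not above the background. The exact sign-flip p of each was 0.125, the smallest possible, so no member could pass.

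Gclc, Sat1 and Slc7a11 had a slope in the Ehmt2 fl/fl-labelled sections. There Gclc went from 30.8 to 51.2 and from 40.8 to 111 between the lowest and the highest bin, while in the Ehmt2 +/+-labelled ones it went from 90.8 to 88.5 and from 58.5 to 50.4. Sat1 went from 104 to 222 and from 100.6 to 186 in the Ehmt2 fl/fl-labelled sections, and from 228 to 192 and from 103 to 112 in the other 2. Slc7a11 went from 24.8 to 38.8 and from 19.1 to 55.4, against 9.83 to 13.5 and 27.1 to 14.5. The mean log2 ratios of lowest over highest bin differed between the labels by -1.21 for Gclc, -1.05 for Sat1 and -1.30 for Slc7a11, each with exact permutation p = 0.333, the smallest possible. Hmox1 (-0.21), Nqo1 (-1.21), Txnrd1 (-0.56) and Fth1 (0.28) did not overlap between the labels either. The share of all genes without overlap was not computed. The bins do not cover the same range, with mean enzyme shares of 36.9% to 68.7% in the Ehmt2 +/+-labelled sections and 5.44% to 37.0% in the Ehmt2 fl/fl-labelled ones, so a like slope at a like enzyme share was not tested.

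**Figure D5:**
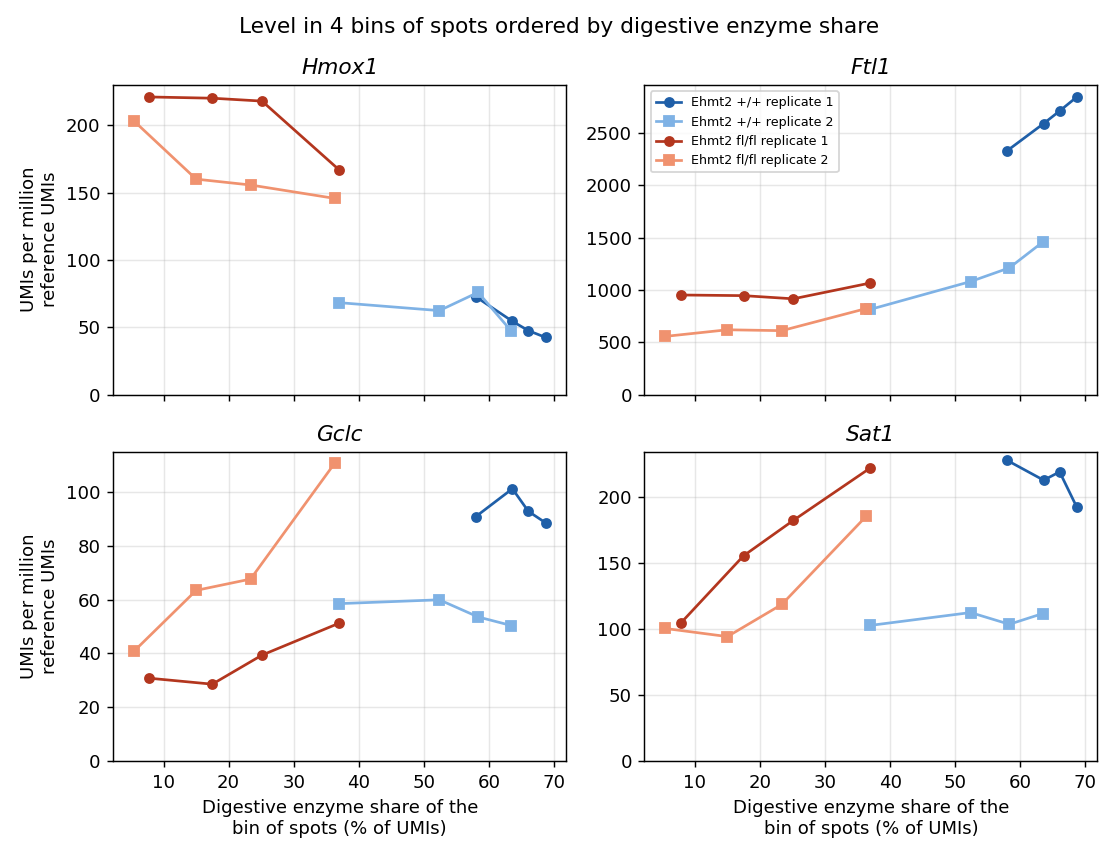
Reference CPM of Hmox1, Ftl1, Gclc and Sat1 in 4 bins of spots of each section, plotted at the enzyme share of the bin. Hmox1 is lower in the highest than in the lowest bin of every section and lies between 146 and 221 in the Ehmt2 fl/fl-labelled sections, and Gclc and Sat1 are higher in the highest than in the lowest bin of those 2 sections.

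Beyond the members, 91 genes of 8 neighbouring roles were read from the same fit, and none of them passed the threshold. Their median log2 fold change was -0.62, beside -0.88 over the well-counted and 0.25 over all genes. By reference CPM 38 were higher in both Ehmt2 fl/fl-labelled sections, 20 were lower and 33 overlapped, or 41.8% and 22.0%, against 46.9% and 6.69% of all genes. The roles differed in their counts. Of 6 genes of the NADPH oxidase that phagocytes use to make superoxide, 5 were higher and none lower, and of 24 heme and iron genes 15 were higher and 2 lower. Of 10 thioredoxin and peroxiredoxin genes 2 were higher and 4 lower, of 18 glutathione genes 4 were higher and 4 lower, and of 9 polyamine genes none was higher and 2 were lower. Of the 8 genes of NRF2 and its partners, Bach1, Mafg, Mafk and Maff were higher and Keap1, Nfe2l1 and Sqstm1 lower. Nfe2l2 itself overlapped at 236, 148, 233 and 226 reference CPM. The gap was narrow for Keap1 (53.4, 60.3, 52.9 and 50.9) and Nfe2l1 (331, 186, 175 and 183), and Sqstm1 was at 2405, 2735, 2032 and 1854. By CPM each of these 8 genes was higher in both Ehmt2 fl/fl-labelled sections, as were 91.8% of all genes.

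By the naming rule, the largest positive fold changes among these genes with CPM that did not overlap were those of Hp, Ncf1 and Lcn2. Hp, which encodes haptoglobin, the binder of free hemoglobin, was at 1.99, 15.9, 86.7 and 91.6 CPM (log2 fold change 2.0 ± 0.84, SE, adjusted p = 0.784). Lcn2, the siderophore-binding lipocalin that neutrophils and injured epithelium release, was at 17.0, 30.3, 257 and 254 CPM (1.57 ± 0.99, adjusted p = 0.863). Ncf1, a subunit of the phagocyte oxidase, was at 8.70, 21.4, 151 and 153 CPM (1.61 ± 0.93, adjusted p = 0.863). The 8 genes of the neutrophil list, all detected in every section, summed to 3.61, 44.0, 138 and 147 CPM, and their part in these values was not tested. A single olfactory receptor gene had a median of 0.251, 4.97, 8.13 and 12.6 CPM, so background may make up part of these sums. The largest negative ones were those of Prdx4, the peroxiredoxin of the endoplasmic reticulum, at 185, 164, 110 and 100.4 CPM (-2.87 ± 1.16, adjusted p = 0.724), Taldo1 of the pentose phosphate pathway (-1.93 ± 1.18) and Nfe2l1 (-1.74 ± 1.06). Taldo1 and Nfe2l1 were higher by CPM in the Ehmt2 fl/fl-labelled sections, and their fold changes turned positive with total UMIs as library sizes (0.22 and 0.47).

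The genes that shared a member's pattern over 40 points, 10 bins of spots by enzyme share in each section with each section centred on its own mean, are given as a description. They come from 5834 genes with at least 100 UMIs in each section, and points of 1 section share its library and depth. Nqo1 and Slc7a11 themselves have fewer UMIs than that in at least 1 section. Hmox1 ran most like Spred1 (Pearson r = 0.77) and Ptprc (0.76), the pan-leukocyte antigen CD45. Ftl1 ran most like Fau (0.92) and Aldoa (0.87), Sat1 like Krt20 (0.77) and Irgq (0.74), Gclc like Ifrd1 (0.73) and Cdcp1 (0.72), and Slc7a11 like Trib3 (0.64) and Ccdc71l (0.60). For Fth1 they were Dhrs3 (0.64) and Notch1 (0.63), for Gclm Cth (0.63) and Slc25a1 (0.60), for Srxn1 Socs4 (0.65) and Rab32 (0.62), for Txnrd1 Zcchc14 (0.62) and Pex16 (0.59), and for Nqo1 Gsdmd (0.77) and Nr1h4 (0.75). No member was among the 2 genes most like another. Among the 45 pairs of members, the strongest were Nqo1 with Ftl1 (r = -0.75), Slc7a11 with Fth1 (-0.56), Gclc with Sat1 (0.54) and Hmox1 with Ftl1 (-0.53). The ferritin pair, Fth1 with Ftl1, had r = 0.18.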

How the data were processed

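Caerulein-treated pancreas was profiled with the CytAssist Visium assay, in which probe pairs on fixed RNA are captured on barcoded spots. Per the submitters' processing notes and the methods, the authors counted with Space Ranger on mm10. The authors deposited raw, unscaled UMI counts of all features in all spots, those off tissue too. The authors' later SCTransform values were not used. Probe sequences were not used here. Probe counts do not follow transcript length. Levels of different genes were therefore compared only with the olfactory receptor background and as UMI counts or ratios of members. Differences in probe yield between genes limit these comparisons.

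From these counts, 304 features with a deprecated mark (0.477% to 0.803% of UMIs) were dropped and spots with at least 500 UMIs were summed for each section. Sums were tested with edgeR 4.0.16 in R 4.3.3 (quasi-likelihood test, TMM, filterByExpr with a minimum count of 10, threshold 0.05), genotype as the only factor and 1 section as 1 replicate. DESeq2 1.42.0 was an alternative. Total UMIs in these spots ranged from 6643747 to 43784930. Other values were computed in Python 3.11.15 with numpy 2.4.6, scipy 1.17.1, pandas 2.3.3 and matplotlib 3.10.9, with exact permutation tests over sections and Benjamini-Hochberg adjustment. The log2 ratios for marker-rich spots and for enzyme bins add 0.5 UMIs to each count, and the UMI ratios of members do not. Intervals are exact Poisson at 95%. The digestive enzyme list has 39 genes, 38 of them in the files. The fit steps were run on simulated counts as a check of the code. Those counts had less spread than the sections (common dispersion 0.351), and the difference in enzyme share was not built in. They therefore do not check how the reported fits behave.

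The members, gene lists and alternatives were chosen with earlier results of these data known. The text names the 10 members, Ehmt2, pathway genes past the threshold or, where fewer than 6 pass, also the 3 largest and 3 smallest fold changes with CPM that do not overlap, and the 2 genes most like each member. NRF2 and its partners are also named, chosen after their values were seen. Alternatives changed the test, scaling, low-count filter, spots, thinning, splits and sections used. Fits with the slide as a block or reference UMIs as library sizes, background subtraction, spots without macrophage UMIs and ratios of members were added after seeing the data.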

Additional observations from a re-analysis of the deposited data

Results flagged for a closer look

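Across the enzyme bins and the macrophage marker-rich spots, 5 differences within sections had opposite signs in the 2 labels, each in both sections of a label. Among the 90 pairs of member and list for the other 9 marker lists, 12 also had opposite signs, and their differences were not tested. They are log2 ratios in the sections labelled Ehmt2 fl/fl minus those labelled Ehmt2 +/+. For the lowest against the highest enzyme bin the difference was -1.21 for Gclc. For macrophage marker-rich against other spots it was -0.43 for Gclc, -0.99 for Slc7a11, -0.83 for Sat1 and 0.42 for Ftl1. A permutation test of 2 sections against 2 gave p = 0.333 for each, the smallest it can give. They are 5 of the contrasts of 10 members in 2 kinds of spots. The share of all genes with opposite signs was not computed, so this count is not read as a result about the members.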

How the results depend on the processing

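The count of genes past the threshold was 22 and changed to 470 with DESeq2, 400 with total UMIs as library sizes, 3 with upper-quartile factors, 100 in spots with an enzyme share of 20% to 50%, 81 with reference UMIs as library sizes and 13 with the slide as a block. Leaving out 1 section gave 0 to 16653. No member passed in the reported fit, 1 did with DESeq2 (Ftl1), 1 with total UMIs (Hmox1) and 0 to 7 with a section left out. Of the 91 pathway genes 8 passed with DESeq2, all lower, 8 with total UMIs, all higher, 2 at a like enzyme share, 2 with reference UMIs and 0 to 75 with a section left out. The section labelled Ehmt2 +/+ replicate 2 decides the upper ends, 16653, 7 and 75. DESeq2 gave no adjusted p to 18272 genes, which its own filter left out. Hmox1, Nqo1, Gclm, Gclc, Srxn1, Txnrd1 and Slc7a11 were among them.

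With total UMIs as library sizes the fold changes of Gclm (1.10), Gclc (0.55), Txnrd1 (1.33), Sat1 (0.88), Fth1 (0.96), Nfe2l1 (0.47) and Taldo1 (0.22) turned positive. In the spots within the window of enzyme share Nqo1 (-0.67), Gclc (0.24), Txnrd1 (0.57), Sat1 (0.55) and Taldo1 (0.26) turned. Enzyme shares inside that window may still differ between the sections. With DESeq2 Srxn1 (-0.30) and Slc7a11 (-0.35) turned, and with reference UMIs Gclm (0.13) and Txnrd1 (0.38). With a section left out the range was -0.15 to 1.58 for Nqo1, -1.73 to 0.0817 for Gclm, -0.0933 to 0.15 for Srxn1, -1.34 to 0.18 for Txnrd1, -0.37 to 0.43 for Slc7a11, -2.23 to 0.25 for Sat1 and -2.07 to 0.20 for Fth1. The cause was not tested.

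The 8 members higher by CPM became 4 on the reference scale, 3 there after background subtraction and 4 there in spots without macrophage UMIs, with 1 lower in each and 8 to 9 higher and 0 to 1 lower with a section left out. On the reference scale the log2 ratio of the means was -0.13, -0.21 and -0.10 for Sat1, -0.0394, -0.0495 and -0.0989 for Fth1 under these 3 in turn, and for Gclm -0.19 and -0.18 under the last 2. By thinned share 8 were higher. Unthinned there were 3, and with 500 UMIs outside the enzyme list 5 with 1 lower, and 0 to 1 were lower with a section left out. The log2 ratio turned to -0.64 for Gclm, -0.28 for Txnrd1, -0.84 for Sat1 and -0.0310 for Fth1 unthinned, and to -0.15 for Sat1 and -0.0188 for Fth1 outside the enzyme list. In macrophage marker-rich spots 2 members were higher in all sections, 1 in the top 5% and 5 by CPM, with 0 to 1 lower and 2 to 3 higher with a section left out. Across enzyme bins 2 were higher and 1 lower, 6 and 0 by CPM, where Ftl1 was at 0.10, and 1 to 3 lower with a section left out. Other alternatives kept these counts within 1.5 times. For thinned shares, and for the alternatives in this paragraph other than the reference scale, the share of all genes was not computed. Those counts are therefore not read as results about the members.

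The labels carry no replicate numbers, so no pairing by number was made, and replicates 1 and 2 are only names. The slide, which holds 1 section of each label, pairs the sections, and the fit with the slide as a block left 1 residual degree of freedom and called 13 genes and no member. Low counts limit Nqo1 and Slc7a11 most, with 67 and 77 UMIs in the section labelled Ehmt2 +/+ replicate 2. Nqo1 had 30 UMIs in the section labelled Ehmt2 +/+ replicate 1, the deepest.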
